A study of Sus scrofa with 57 samples.

Results

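The mitochondrial ribosomal proteins were taken as all genes whose name in the expression tables begins with MRPL or MRPS followed by a number. This rule found 65 of 25285 gene identifiers, with 63 different names, because MRPL27 and MRPS16 each stand at 2 loci. Of the 65 loci, 63 had a mean level high enough to be tested, whereas MRPL33 and MRPS21 did not. The rule itself reads names and no measured value.

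RNAseq was performed on mature adipocytes, the fat-storing cells, of 5 lean and 5 obese male pigs. The animals came from an inter-cross of Duroc pigs and Göttingen minipigs and had been selected as extremes for leanness and for obesity, and no treatment separated the groups. The adipocytes were isolated from retroperitoneal fat with collagenase and a nylon filter, and obese pig-572 has 2 libraries, which were averaged. DNA methylation was measured in adipocytes of a larger set of lean and obese pigs of both sexes, by capture of methylated DNA (mDNAcap) and by reduced representation bisulfite sequencing (RRBS).

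Mitochondria hold their own ribosome, which translates the few mRNAs of the mitochondrial genome into core subunits of the respiratory chain and of ATP synthase. Its ribosomal RNAs are mitochondrially encoded, but every one of its proteins is encoded in the nucleus, made in the cytosol and imported. A part of these proteins descends from bacterial ribosomal proteins, and others were added during the evolution of mitochondria. In adipocytes, respiratory chain capacity bears on fatty acid oxidation and on the supply of building blocks for fat synthesis.

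Levels are given as normalized FPKM, that is, fragments per kilobase of transcript scaled to the mapped fragments of the library, divided by a size factor per library. The size factors of the 11 libraries lay between 0.691 and 1.23, and between 8950 and 10291 genes per library had an FPKM of at least 1. The adipocyte genes PLIN1 and LIPE had mean levels of 289 and 170 in lean pigs and of 340 and 165 in obese pigs. LEP, the gene of the adipocyte hormone leptin, had 28.9 ± 20.9 in lean and 118 ± 28.8 in obese pigs (SD, n = 5 each), without overlap and with an adjusted p of 0.0896 in limma. Of the 10 leukocyte marker loci, 1 reached the filter, with CD163 listed at 0, of the 4 endothelial marker loci 1 did, and of the 6 muscle marker loci, 0 did. The 9 fibroblast marker loci were summed to between 229 and 725 in lean and between 257 and 624 in obese pigs, and the 7 tested ones had lower means in obese pigs, none at an unadjusted p under 0.05 in limma. Their part in the results was not tested. In bulk RNA, fewer cells that express a gene and less of its RNA per cell cannot be told apart.

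The mitochondrial ribosomal protein genes were expressed at moderate and very different levels. The mean over the 10 pigs ran from 2.07 to 76.0 with a median of 14.8, and 47 of the 63 tested loci lay between 5 and 30. The median of all 10246 genes tested was 5.14. The order of the genes was much the same in lean and in obese pigs, with a correlation across the 63 genes of r = 0.98 between the group means on the log2 scale, which describes genes of shared libraries and not independent replicates.

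The highest levels belonged to MRPS6, MRPL24 and MRPL30. MRPS6, the counterpart of bacterial S6 in the small subunit, measured 61.5, 78.5, 87.3, 68.5 and 106 in the lean pigs and 61.0, 77.4, 64.1, 99.7 and 55.4 in the obese pigs. MRPL24, a large subunit protein of bacterial descent, measured 64.96, 63.2, 65.1, 71.7 and 66.0 in the lean pigs and 52.6, 73.9, 58.8, 73.8 and 75.6 in the obese pigs. MRPL30, likewise of the large subunit, measured 60.4, 42.7, 64.2, 92.7 and 79.4 in the lean pigs and 46.8, 58.8, 65.2, 64.0 and 67.6 in the obese pigs. The groups overlapped in all 3 genes, and neighbours in this order differed by less than the spread between pigs, so that the order within the top is not settled.

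The lowest tested levels belonged to MRPL51, MRPS2 and MRPL32, with means of 2.07, 2.70 and 3.06. MRPL51, a protein added in mitochondria, is listed at a locus of 392 bases, and the bounds that cufflinks gave spanned 45.6% of its value on either side, against a median of 6.84% over the tested loci. MRPL32, whose bacterial counterpart is L32, lay between 2.33 and 3.58 in lean and between 2.15 and 3.61 in obese pigs. MRPL33 is listed at 0 in every pig at a locus of 201 bases, and MRPS21, at a locus of 264 bases, was above 0 in lean pig-413 and obese pig-473 and pig-529 at 0.123, 0.120 and 0.135. Both loci are much shorter than the median of 6976 bases over the tested genes.

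The comparison of obese with lean pigs asked whether the RNA levels of mitochondrial ribosomal protein genes differ in obesity. The proteins themselves were not measured. No mitochondrial ribosomal protein gene passed the threshold of an adjusted p of 0.05 in limma, fitted to all 10246 genes, and the lowest adjusted p was 0.141, for MRPL13. The threshold was passed by 1 gene in all (0.00976% of the genes tested), C10ORF46, with a log2 fold change of 1.01 and an adjusted p of 0.00413 in limma. Of the 63 loci, 28 had a higher and 35 a lower mean in obese pigs, with a median log2 fold change of -0.02, beside 5101 higher, 5145 lower and a median of -0.0013 over all genes. The log2 fold changes ran from -0.49 for MRPL45 to 0.35 for an MRPL27 locus, and 45 of the 63 stayed within 0.2 of 0.

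The precision of these values allows a limit on the size of a difference. The standard error of the log2 fold change had a median of 0.13 and ran from 0.07 to 0.27. The 95% interval lay within a change of 1.5-fold in either direction for 52 of the 63 loci, among them MRPL24, whose interval ran from -0.28 to 0.28, and MRPS34, from -0.18 to 0.25. For the other 11 loci a change beyond 1.5-fold lay within the interval, and 5 of these intervals excluded 0, such as that of MRPL45 from -0.92 to -0.06, before any adjustment for the number of genes. All intervals are of log2 of the level plus 1, which shrinks changes and intervals at low levels. With 0.1 added in place of 1, the log2 fold change of MRPS2 was 0.39 in place of 0.29. For the loci with the lowest levels, the limit thus holds on the fitted scale only.

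**Figure D1:**
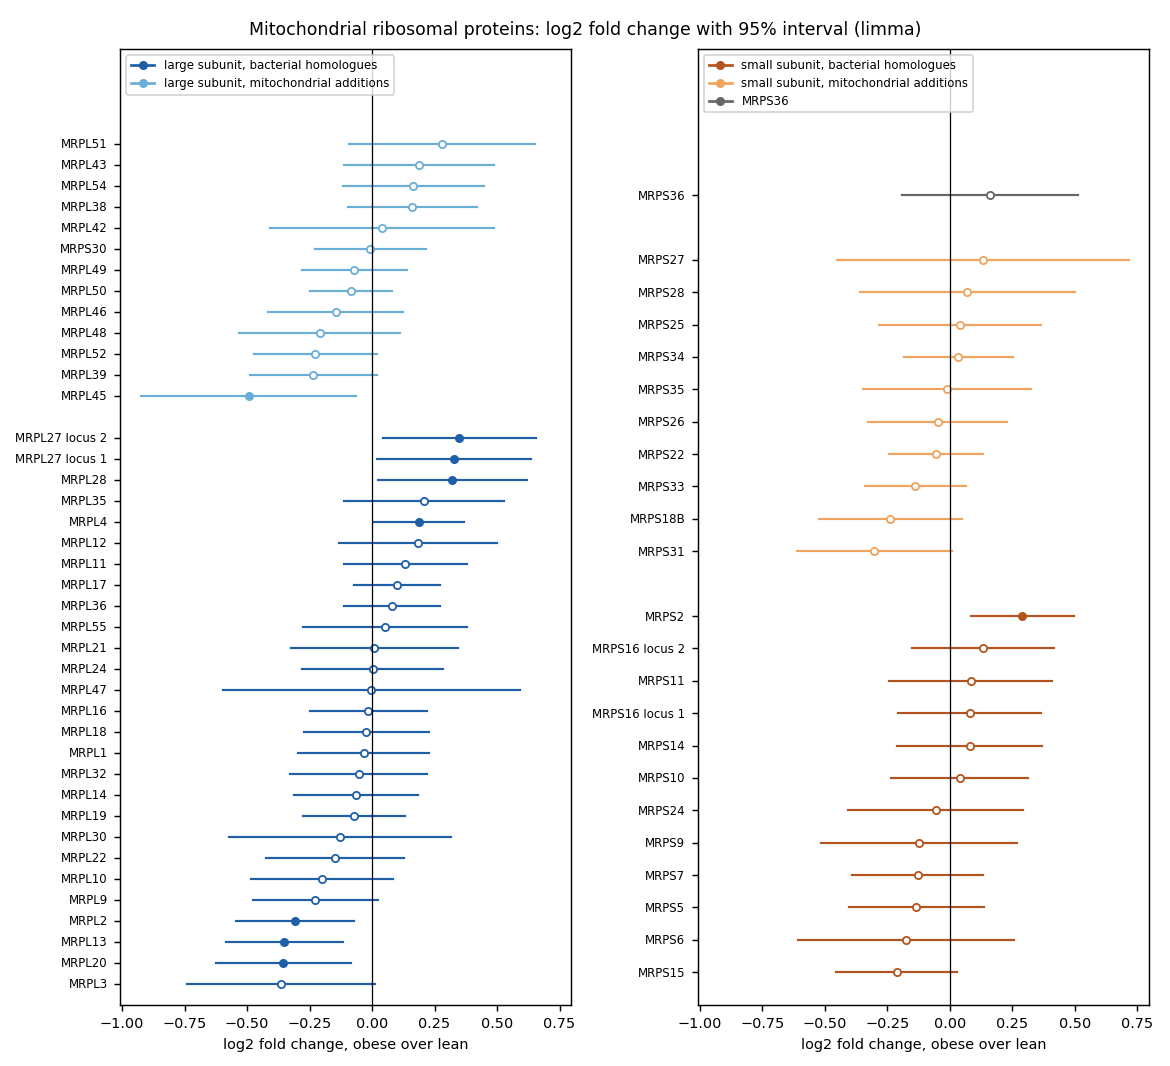
Log2 fold change (obese over lean pigs, 5 per group) of the 63 tested loci of mitochondrial ribosomal protein genes on the horizontal axis, with bars for the 95% interval in limma, large subunit genes in the left panel and small subunit genes and MRPS36 in the right panel. Filled points had an unadjusted p under 0.05 in limma, which holds for 5 loci with a higher and 4 with a lower mean in obese pigs, and values lie on both sides of 0 in every group.

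At an unadjusted p under 0.05 in limma, 5 loci were higher in obese pigs (7.94% of the members) against 10.6% of all genes tested, and 4 were lower (6.35%) against 10.2%. These shares were not tested against those of all genes. The higher loci were both MRPL27 loci, MRPL28, MRPS2 and MRPL4, and the lower ones MRPL45, MRPL20, MRPL13 and MRPL2. MRPL4 lies outside the rule for named genes and is named because it completes this count. Leaving out single pigs moved the number higher to between 1 and 6 and the number lower to between 3 and 7. Without pig-529 or without pig-572 there was 1 higher locus, without pig-413, pig-524, pig-525 or pig-577 there were 2, and without pig-407 or pig-473 there were 7 lower loci. With FPKM as deposited, without size factors, the counts were 0 higher and 1 lower. The shares of all genes in these alternative fits were not set beside these counts. In the two-sided exact permutation test over the 10 pigs, 9 loci had a p under 0.05 (14.3% of the members), against 18.3% of all genes tested, and 7 of the 9 were among those of limma.

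The groups did not overlap for 1 locus that was higher in obese pigs, MRPS2 (1.59% of members), against 2.34% of all genes tested, and for 1 that was lower, MRPL20, against 1.79%. MRPS2 (chr1:308635546-308639471 on Sscrofa10.2), the counterpart of bacterial S2 in the small subunit, measured 2.32, 2.53, 1.86, 2.54 and 2.38 in the lean pigs and 2.77, 2.59, 3.55, 3.14 and 3.31 in the obese pigs. The highest lean and the lowest obese pig were close to each other. The means were 2.33 ± 0.277 (SD, n = 5) and 3.07 ± 0.393 (SD, n = 5), with a log2 fold change of 0.29 (SE 0.09), an adjusted p of 0.157 in limma and an exact permutation p of 0.00794, the smallest that 5 against 5 pigs can give. Groups without overlap always give this permutation p, so it adds nothing to the lack of overlap.

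MRPL20 (chr6:58274549-58279707), whose bacterial counterpart is needed early in the assembly of the large subunit, measured 24.8, 24.3, 29.7, 34.8 and 27.97 in the lean pigs and 18.3, 22.1, 22.7, 22.0 and 24.1 in the obese pigs. Every obese pig was below every lean pig, by a narrow margin. The means were 28.3 ± 4.27 and 21.8 ± 2.16 (SD, n = 5 each), with a log2 fold change of -0.35 (SE 0.12), an adjusted p of 0.171 in limma and an exact permutation p of 0.00794. The permutation p is again fixed by the lack of overlap. With FPKM as deposited, neither gene kept its groups apart, and without the filter on low values MRPL20 did not. Leaving out single pigs moved the number without overlap to between 1 and 3 for higher and between 1 and 6 for lower loci. There were 3 higher loci without pig-402 and 2 without pig-407, pig-433, pig-473 or pig-525. There were 6 lower loci without pig-407, 3 without pig-473 or pig-529 and 2 without pig-572. With 1 pig fewer, groups separate more easily for any gene. The shares of all genes in these fits were not set beside these counts, which are therefore not read as a result about the members.

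MRPL45 had the largest negative log2 fold change. The locus lies on an unplaced sequence. The protein was added in mitochondria and is known to tie the large subunit to the inner membrane near the exit of the nascent chain. MRPL45 measured 39.2, 39.6, 81.6, 56.9 and 57.5 in the lean pigs and 33.4, 39.2, 34.8, 43.2 and 36.6 in the obese pigs. Lean pig-413 stood highest, while lean pig-402 and pig-407 lay within the range of the obese pigs. The log2 fold change was -0.49 (SE 0.19), with an adjusted p of 0.201 in limma and an exact permutation p of 0.0397. Without pig-413 it was -0.34. A further locus that only the reference list of names gives as MRPL45, and which is therefore not among the 65, had a log2 fold change of -0.44 (SE 0.16) and an adjusted p of 0.190 in limma. Reads of near-identical copies could be split between such loci, so the level of each is uncertain.

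MRPL13, MRPL2 and MRPL3, all large subunit proteins of bacterial descent, followed. MRPL13 (chr4:19634625-19696795) measured 30.8, 28.1, 35.02, 33.7 and 34.9 in the lean pigs and 23.9, 25.03, 22.6, 29.5 and 25.3 in the obese pigs, so that obese pig-529 alone reached into the lean range. Its log2 fold change was -0.35 (SE 0.11), with an exact permutation p of 0.0159. MRPL2 (chr7:43616539-43621036), whose bacterial counterpart lies near the site of peptide bond formation, measured 21.8, 20.05, 21.9, 26.8 and 26.7 in the lean pigs and 18.1, 20.9, 17.4, 18.3 and 18.6 in the obese pigs. Here obese pig-473 alone reached the lean range, and the log2 fold change was -0.31 (SE 0.11), with an adjusted p of 0.174 in limma. MRPL3 (chr13:763799-803373) measured 19.98, 15.2, 19.8, 26.1 and 20.9 in the lean pigs and 14.6, 17.8, 16.0, 19.2 and 10.9 in the obese pigs, with a log2 fold change of -0.36 (SE 0.17) and an adjusted p of 0.251 in limma. Without pig-572, the lowest of the obese pigs, it was -0.24.

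Among the loci that were higher in obese pigs, MRPL27 came first. Its bacterial counterpart reaches into the peptidyl transferase centre. The locus at chr12:26754967-26761165 measured 20.6, 16.4, 12.8, 14.6 and 11.9 in the lean pigs and 18.3, 17.9, 19.4, 20.4 and 21.1 in the obese pigs. The locus at chr12:26611719-26618041 measured 35.9, 30.6, 24.4, 28.8 and 22.2 in the lean pigs and 32.4, 32.8, 33.3, 40.2 and 39.0 in the obese pigs. At both, lean pig-402 lay within the obese range and the other lean pigs below it. The log2 fold changes were 0.35 (SE 0.14) and 0.33 (SE 0.14), with adjusted p of 0.202 and 0.221 in limma and exact permutation p of 0.0476 and 0.0556. The 2 loci correlated across the 10 pigs with r = 0.97, and those of MRPS16 with r = 0.98. Since near-identical copies can share reads, the 2 loci of a name were not read as separate evidence.

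With MRPS2, MRPL28 and MRPL51 completed the 5 loci with the highest positive log2 fold changes. MRPL28 (chr3:41094505-41097389), a large subunit protein of bacterial descent, measured 15.0, 18.3, 19.2, 15.4 and 19.2 in the lean pigs and 20.8, 16.3, 25.2, 23.9 and 24.5 in the obese pigs. Obese pig-473 lay within the lean range and the other obese pigs above it. The log2 fold change was 0.32 (SE 0.14), with an adjusted p of 0.219 in limma and an exact permutation p of 0.0556. The libraries of pig-572 differed by 0.53 on the log2 scale for this gene, with the second higher, which is more than the log2 fold change itself. MRPL51, the tested locus with the lowest mean, lay between 1.02 and 2.33 in lean and between 1.601 and 3.17 in obese pigs. Its log2 fold change was 0.28 (SE 0.17), and the bounds of cufflinks spanned 45.6% of its value on either side.

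**Figure D2:**
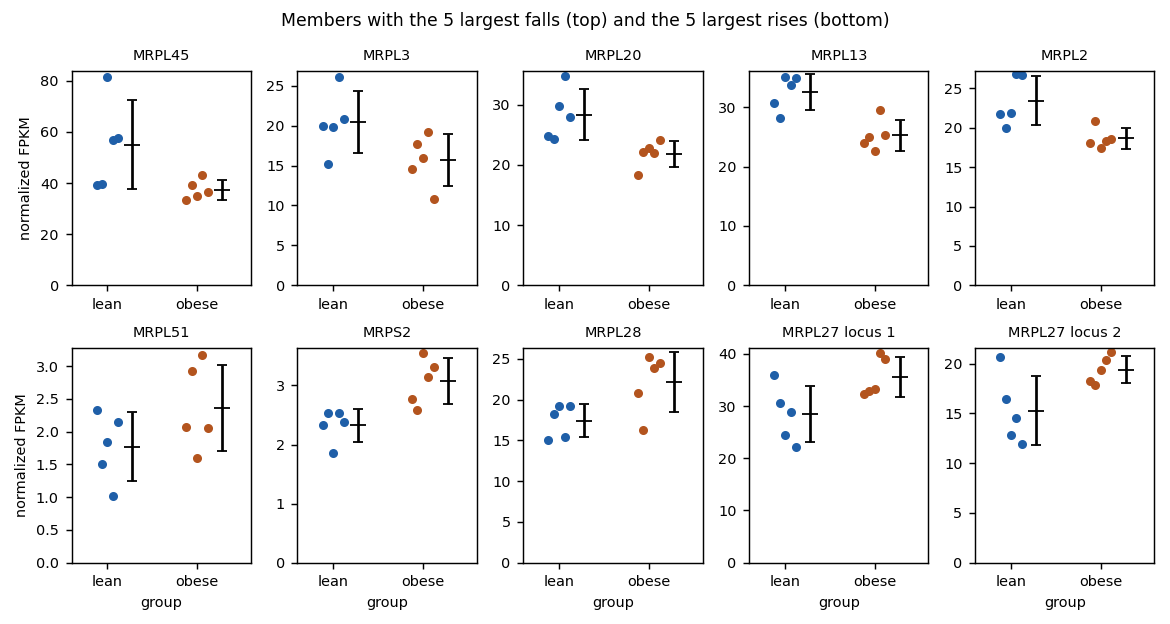
Normalized FPKM (vertical axis, from 0) of the loci with the 5 most negative log2 fold changes in the top panels and the 5 most positive in the bottom panels, with 1 point per pig (5 lean, 5 obese) and the mean and SD of each group in black. MRPL20 and MRPS2 are the loci whose groups do not overlap, and lean pig-413 stands at 81.6 for MRPL45.

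The lean and obese levels were set against the place of the proteins in the ribosome. Of 27 tested large subunit loci of bacterial descent, 12 were higher and 15 lower in obese pigs, with a median log2 fold change of -0.02. Of 13 large subunit proteins added in mitochondria, 5 were higher and 8 lower, with a median of -0.07. In the small subunit, 6 of 12 loci of bacterial descent were higher and 6 lower, with a median of -0.01, and of 10 listed as mitochondrial additions 4 were higher and 6 lower, with a median of -0.03. Some naming schemes relate MRPS28, listed here as an addition, to a bacterial protein. The 5 most negative log2 fold changes all belonged to large subunit genes, and of the 5 most positive only that of MRPS2 belonged to the small subunit. The differences between these groups of proteins were not tested.

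Some mitochondrial ribosomal proteins have roles of their own. MRPL12, the stalk protein that contacts translation factors and has been described to bind the mitochondrial RNA polymerase, had means of 4.81 ± 1.27 in lean and 5.48 ± 0.462 in obese pigs (SD, n = 5 each) and a log2 fold change of 0.18 (SE 0.14). MRPS18B of the small subunit had a log2 fold change of -0.24 (SE 0.13), with 43.1 ± 6.35 in lean and 36.3 ± 4.09 in obese pigs (SD, n = 5 each). MRPS30 is a protein of the large subunit despite its name, and its means of 9.35 ± 1.16 and 9.29 ± 0.927 (SD, n = 5 each) differed by far less than the spread between pigs. MRPS36, now known as a subunit of the 2-oxoglutarate dehydrogenase complex of the citric acid cycle, had means of 17.3 ± 3.80 and 19.3 ± 2.89 (SD, n = 5 each) and a log2 fold change of 0.16 (SE 0.16). None of these 4 had an adjusted p under 0.05 in limma. MRPS18A, MRPL44 and MRPL15 carry their names in the reference list only. Their log2 fold changes were -0.12, -0.17 and 0.04.

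The levels also varied between single pigs. The highest pig exceeded the lowest by a median of 1.62-fold over the 63 loci, and by less than 2-fold for 55 of them. MRPS27 and MRPL47, named for their spread after the values were seen, ran from 4.88 to 15.9 and from 4.003 to 11.03. Expressed as the median over the loci of the log2 deviation from the mean of the 10 pigs, lean pig-525 stood highest at 0.19, with 51 of 63 loci above their own mean, followed by lean pig-577 at 0.10. The lowest were obese pig-433 at -0.17, with 49 of 63 loci below their mean, and lean pig-407 at -0.11, with 50 below. Lean pigs thus stood highest and next to lowest, while the lowest pig was obese. The SD of the log2 level was larger in lean pigs for 41 loci and in obese pigs for 22, with medians of 0.20 and 0.16, beside 0.24 and 0.19 over all genes.

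**Figure D3:**
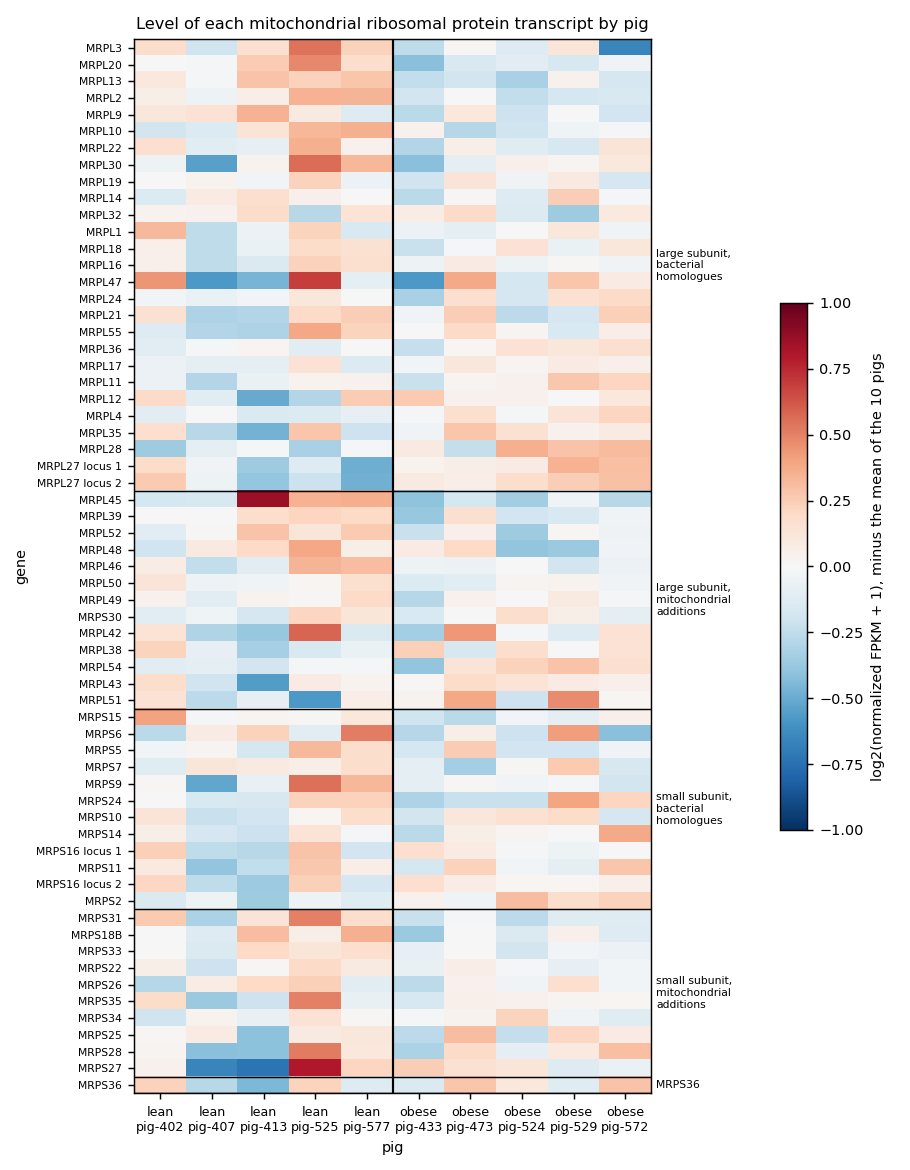
Level of each of the 63 tested loci (vertical axis, ordered by place in the ribosome and then by log2 fold change) in each of the 5 lean and 5 obese pigs (horizontal axis), as log2 of normalized FPKM plus 1 minus the mean of the 10 pigs, in red for higher and blue for lower. Lean pig-525 is above the mean for 51 loci, and obese pig-433 below it for 49.

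The genes of the mitochondrial ribosome moved together across pigs only in part. The correlation between pairs of the 63 loci over the 10 pigs had a median of r = 0.23, and 70.1% of the pairs were above 0, in libraries that share their depth and scaling across genes. For comparison, the median was 0.52 among 80 nuclear genes of oxidative phosphorylation and 0.92 among 73 cytosolic ribosomal proteins. Median levels were 14.8 for the mitochondrial ribosomal proteins, 109 for the oxidative phosphorylation genes and 437 for the cytosolic ribosomal proteins. The part of level in these correlations was not tested. With the mean of the other loci, 35 of the 63 had r above 0.5. MRPS28 had the highest value, at 0.93. In contrast, 10 loci were below 0, the lowest being MRPL32 at -0.39 and MRPL28 at -0.36. The 2 libraries of pig-572 differed by a median of 0.07 on the log2 scale over the loci, against 0.13 to 0.24 for the 6 pairs of the other obese pigs.

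Other parts of the mitochondrial translation apparatus were compared with the same fit. None of their genes passed the threshold of an adjusted p of 0.05 in limma. The counts below stand beside all genes tested, of which 10.6% were higher and 10.2% lower at an unadjusted p under 0.05 in limma. For 1.79% of all genes the groups did not overlap and obese pigs were lower. The lists were not tested against these shares. The 5 tested loci of ribosome proteins with other names included DAP3 (2 loci), PTCD3, CHCHD1 and GADD45GIP1, with 1 higher and 4 lower in obese pigs, of which 0 had an unadjusted p under 0.05. GADD45GIP1 had a log2 fold change of 0.21 (SE 0.11), PTCD3 of -0.15 (SE 0.11) and the DAP3 locus on an unplaced sequence of -0.11 (SE 0.10).

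Of 12 translation factors, 7 were higher and 5 lower, and 1 of them had an unadjusted p under 0.05. This was MRRF, which splits the ribosome after termination, with 8.90 ± 0.894 in lean and 6.69 ± 0.659 in obese pigs (SD, n = 5 each) and a log2 fold change of -0.36 (SE 0.09, adjusted p 0.117 in limma), and its groups did not overlap. TACO1, an activator of COX1 translation, and GFM2, which acts with MRRF, had log2 fold changes of 0.15 (SE 0.12) and 0.14 (SE 0.16).

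Of 14 tested loci of mitochondrial tRNA synthetases, 8 were higher and 6 lower, 2 and 3 of them at an unadjusted p under 0.05. WARS2, for tryptophan, and RARS2, for arginine, had log2 fold changes of -0.34 (SE 0.15) and -0.26 (SE 0.10). These genes did not share a direction.

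Of 16 tested loci for ribosome assembly and rRNA modification, 9 were higher and 7 lower, 1 and 5 at an unadjusted p under 0.05. The 2 loci of RPUSD4, a pseudouridine synthase that acts on mitochondrial rRNA, had log2 fold changes of -0.48 (SE 0.13) and -0.45 (SE 0.12), each with an adjusted p of 0.126 in limma. Both are among the 5 lower loci and may share reads, so the 5 were not read as separate genes. DDX28, an RNA helicase of large subunit assembly, had -0.32 (SE 0.14).

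Of 12 genes for transcription and maintenance of mitochondrial nucleic acids, 3 were higher and 9 lower, 1 and 0 of them at an unadjusted p under 0.05. TFB2M, the initiation factor of mitochondrial transcription, had a log2 fold change of 0.54 (SE 0.33), POLG, the mitochondrial DNA polymerase, of 0.45 (SE 0.15) and SLIRP, which stabilizes mitochondrial mRNAs, of -0.26 (SE 0.18). The adjusted p of POLG was 0.164 in limma. Of the regulators of mitochondrial biogenesis, 4 of 7 loci were tested, with 1 higher and 3 lower and 0 at an unadjusted p under 0.05 in limma. MYC, NRF1 and GABPB1 had log2 fold changes of -0.50 (SE 0.48), -0.13 (SE 0.11) and -0.08 (SE 0.12). Transcripts of the mitochondrial genome were not analysed here.

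The nuclear genes of oxidative phosphorylation and the cytosolic ribosomal proteins are the groups most akin to the mitochondrial ribosomal proteins in destination and in function. Of the first, 59 of 80 were lower in obese pigs, with a median log2 fold change of -0.12, and 1 higher and 3 lower loci had an unadjusted p under 0.05 in limma. This median was -0.04 without pig-433 and -0.05 without pig-524. Of the second, 73 of 73 were lower, with a median of -0.50, and 52 had an unadjusted p under 0.05 in limma, although none had an adjusted p under 0.05. Over all genes tested, 10.6% were higher and 10.2% lower at this unadjusted p. The mitochondrial ribosomal proteins had a median of -0.02, and the differences between these lists were not tested. Summed over all 65 loci, they came to between 1021 and 1318 in lean and between 979 and 1189 in obese pigs, ranges that overlapped widely.

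**Figure D4:**
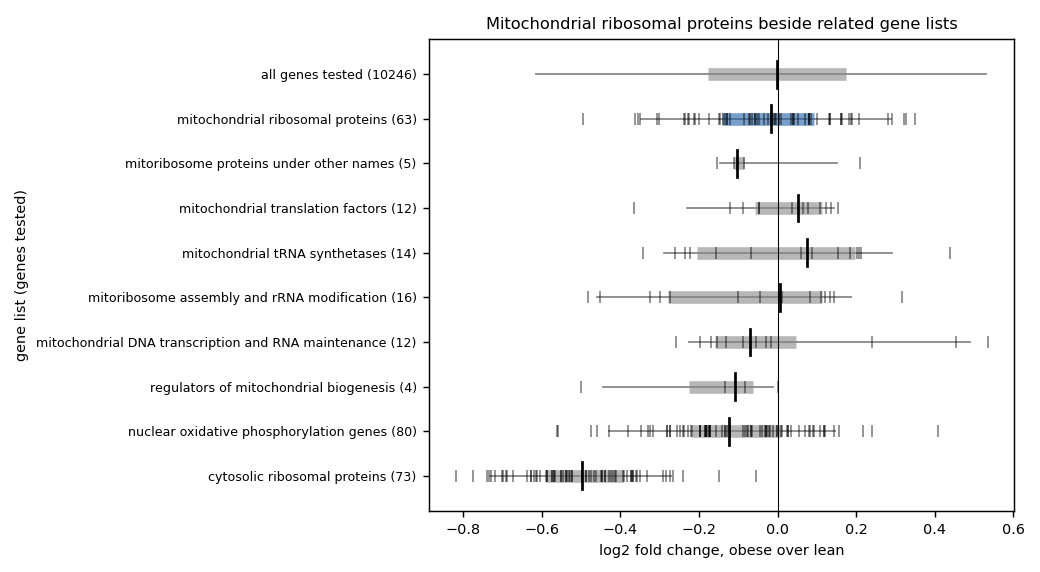
Log2 fold change (obese over lean pigs, horizontal axis) of the mitochondrial ribosomal proteins and of related gene lists (vertical axis, with the number of genes tested), where ticks are genes, thick bars run from the 25th to the 75th percentile, thin lines from the 5th to the 95th and black marks are medians. The mitochondrial ribosomal proteins have their median at -0.02, close to that of all genes, and the cytosolic ribosomal proteins at -0.50.

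Genes that respond early to tissue dissociation were also compared. All 6 tested loci of this list had lower means in obese pigs. Of these, 4 had an unadjusted p under 0.05 in limma, beside 10.2% of all genes tested, and none an adjusted p under 0.05. The loci moved together across pigs, with a median r of 0.92 between pairs, so they are not separate observations. Their sum lay between 457 and 1405 in lean and between 219 and 769 in obese pigs, with none at 0. The median log2 deviation of this list was -0.09, -0.37, 1.17, 0.70 and 1.26 in lean pig-402, pig-407, pig-413, pig-525 and pig-577, and 0.30, 0.23, -1.38, -0.43 and -1.64 in obese pig-433, pig-473, pig-524, pig-529 and pig-572. The mitochondrial ribosomal proteins had 0.04, -0.11, -0.08, 0.19 and 0.10, and -0.17, 0.06, -0.02, 0.03 and 0.02, in the same order. MRPL45, MRPL13, MRPL20 and MRPL2 were highest in pig-413, pig-577 and pig-525, which were also the highest for the dissociation genes. Both MRPL27 loci were lowest in these pigs, whereas MRPL3, MRPL28, MRPS2, MRPL4 and MRPL51 followed neither order. These loci had been picked for their differences between the groups, and the pigs in question are all lean. Their order therefore follows in part from the choice, and the other loci were not counted for it. The cytosolic ribosomal proteins were highest in the same pigs, with median deviations of 0.58, 0.58 and 0.26. The part of the dissociation genes in the values above was not tested.

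DNA methylation near the genes was described from the regions that the authors deposited as different between obese and lean pigs, 7401 by mDNAcap and 610 by RRBS with values from at least 5 pigs per group. Regions were related to the loci in the expression tables, on Sscrofa10.2. No region of either table overlapped the locus of a mitochondrial ribosomal protein gene, whereas mDNAcap regions overlapped 10.2% of all genes tested. The loci were short, with a median of 6976 bases against 16215 for all genes tested. Within 10000 bases, 8 of the genes had a mDNAcap region (12.7% of the tested members) against 15.3% of all genes tested, and 4 had an RRBS region (6.35%) against 2.33%. The 4 genes are too few for more than a count. MRPS2 and MRPL21 lay just outside the distance, 10830 and 10874 bases from a mDNAcap region.

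The regions had been selected on the difference between the same animals, so their values are a description without a test. A mDNAcap value is a read count divided by a constant per library, with 11 pigs per group. The authors' program also reported a mean count per library. Divided by the same constant, it was 1.94 ± 0.351 in lean and 1.59 ± 0.417 in obese pigs (SD, n = 11 each). The part of this difference in the regions was not tested.

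Of the 11 mDNAcap regions within 10000 bases, 8 had higher and 3 lower values in obese pigs. The nearest was chr4:61809601-61810600, 2686 bases before MRPS28. It held between 10.1 and 22.0 normalized counts (median 13.7) in lean pigs and between 2.44 and 10.2 (median 6.92) in obese pigs, so that the groups barely touched. MRPS28 itself measured 29.9 ± 8.63 in lean and 30.8 ± 5.19 in obese pigs (SD, n = 5 each). The other regions with lower values were chr18:53547301-53548400 near MRPS24, with medians of 19.4 in lean and 9.78 in obese pigs, and chr16:51270201-51271600 near MRPS36, with medians of 18.0 and 9.80. The latter lies in the locus of CENPH.

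The region chr3:41088901-41091200 lay 3305 bases before MRPL28, the locus with the third highest log2 fold change. It held between 28.3 and 57.9 normalized counts (median 40.5) in lean pigs and between 42.9 and 79.8 (median 54.6) in obese pigs. All 11 obese pigs were above the lean median. MRPS34 had 3 regions on both sides of its locus, of which the nearest, chr3:41663801-41665700 in the locus of MAPK8IP3, held medians of 37.3 in lean and 53.8 in obese pigs. MRPL36 had 2, and the nearer of them, chr16:85613501-85614700, overlapped NDUFS6, a subunit of respiratory complex I, with medians of 24.2 and 35.02. MRPS34 and MRPL36 had log2 fold changes of 0.03 (SE 0.10) and 0.08 (SE 0.09).

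The region near MRPL54, chr2:75527301-75528300, held medians of 13.2 in lean and 20.1 in obese pigs. It lies in the locus of APBA3, as did an RRBS region 9369 bases from MRPL54 at chr2:75529047-75529133, where the authors' mean methylation was 47.9% in lean and 64.3% in obese pigs. Both regions had higher values in obese pigs, in animals that were largely the same. The 2 regions do not overlap, and each had been selected on its difference between the groups. MRPL54 measured 12.5 ± 0.672 in lean and 14.4 ± 2.57 in obese pigs (SD, n = 5 each), with a log2 fold change of 0.16 (SE 0.13).

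**Figure D5:**
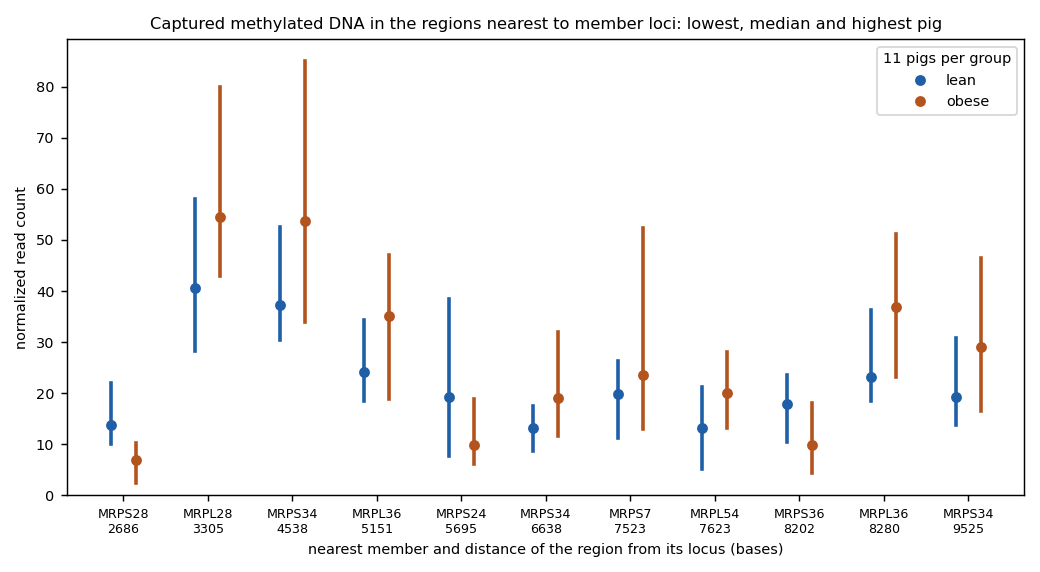
Normalized mDNAcap read count (vertical axis, from 0) of the 11 regions within 10000 bases of a mitochondrial ribosomal protein locus, ordered by distance from it (horizontal axis), where lines run from the lowest to the highest of the 11 pigs per group and points are medians. The regions near MRPS28, MRPS24 and MRPS36 have lower medians in obese pigs and the other 8 have higher ones.

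The other RRBS regions lay in the loci of neighbouring genes. That at chr12:5426229-5426272 in TRIM65, 2237 bases from MRPL38, had an authors' mean of 11.5% methylation in lean and 1.19% in obese pigs. That at chr3:61267865-61268174 in REEP1, 3914 bases from MRPL35, had 24.5% and 35.3%, and that at chr1:9372134-9372199 in PNLDC1, 8507 bases from MRPL18, had 23.5% and 35.3%. These are means of 10 CpGs each, and the spread between pigs and the coverage behind them are unknown. MRPL38, MRPL35 and MRPL18 had log2 fold changes of 0.16 (SE 0.12), 0.21 (SE 0.14) and -0.02 (SE 0.11). In the table that required 3 pigs per group, chr7:43621215-43621384 lay 179 bases after MRPL2, with 15.6% in lean and 3.93% in obese pigs. That table repeats the region near MRPL54 but not those near MRPL38, MRPL35 and MRPL18. There, chr3:41659878-41660124 lay 615 bases after MRPS34, in the locus of NME3, with 4.55% and 26.4%.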

How the data were processed

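Per the labels and the study's methods, the authors mapped ribosome-depleted RNAseq reads with STAR 2.3.1 to Sscrofa10.2 and estimated FPKM per library with Cufflinks 2.2.0. FPKM keeps no read counts, so the depth of single libraries is unknown, and precision was read from the spread between pigs and from the bounds of Cufflinks. For mDNAcap, diffReps was used by the authors to count reads in sliding windows, and the deposited signal is a normalized count. These values carry no animal names and were assigned to no pig. For RRBS, the authors mapped with Bismark 0.10 and Bowtie2 2.1.0, and the deposited value of a region is a fraction, the mean methylation of a group, printed here in percent. The authors' own fold changes, p-values and q-values were not used.

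Entries that share an identifier (52) were added, and 9 identifiers with a failed estimate were not tested. Values were divided by median-of-ratios size factors, and pig-572 entered as the mean of its libraries. For genes whose FPKM averaged 1 or more, log2 of the value plus 1 was fitted in limma 3.58.1, run under R 4.3.3 with the trended eBayes, with Benjamini-Hochberg adjustment over 10246 genes. Log2 fold changes understate changes of genes near 1. For single genes, an exact permutation test, two-sided, took all 252 splits of the pigs. The fit was tested on simulated data. Figures were drawn with matplotlib 3.10.9 in Python 3.11.15.

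Pig-411, labelled obese but placed with the lean pigs in the authors' mDNAcap comparison, has no RNAseq library and stayed in the authors' grouping there. Obese pig-584 has no library in that comparison. The RRBS library of pig-411 was also assigned to no group, and the deposited values do not state which RRBS group mean holds it. Nothing states more than 1 sample per pig other than for pig-572, so the spread is that between animals. The members and gene lists were chosen with earlier results of these data known. Named genes were the 5 most negative and 5 most positive, those without overlap, those with a region within 10000 bases, the 3 highest and 3 lowest, those with a role of their own and up to 3 per related list, of which some results are not reported here. Alternatives were the scaling, the pseudocount, the filter, the libraries of pig-572, the variance model, each pig left out, and the distance and pig number for regions.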

Additional observations from a re-analysis of the deposited data

Results flagged for a closer look

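For 2 of the 56 sets of 5 pigs examined (the lean or the obese pigs of a named gene), 1 pig stood apart from the other 4 by more than Dixon's 95% critical value, which chance gives in about 1 of 20 sets. For MRPL54, obese pig-433 had the lowest value at 9.92, whereas the other obese pigs lay at 14.7 to 16.4. Without it, the log2 fold change was 0.28. For MRPS21, lean pig-413 had 0.123 where the other lean pigs are listed at 0, a gene that did not reach the filter.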

How the results depend on the processing

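The number of mitochondrial ribosomal protein genes past the threshold was 0 in limma under every alternative fitted, and the lowest adjusted p of a named one was 0.0608. The number of all genes past it was 0 with FPKM as deposited, 5 without a filter, 3 at a mean FPKM of at least 5, 10 with the second library of pig-572, 178 with its libraries as separate replicates and between 1 and 165 without single pigs, highest without pig-402. Loci higher in obese pigs numbered between 25 and 31 in the alternatives that kept all pigs and between 20 and 35 without single pigs, where the median log2 fold change ran from -0.07 without pig-407 to 0.03 without pig-525. Loci whose groups did not overlap numbered 0 higher and 0 lower with FPKM as deposited, 0 lower without a filter, 0 higher and 3 lower at a mean FPKM of at least 5, and 1 to 3 higher and 1 to 6 lower without single pigs. The shares of all genes in these fits were not set beside these counts. The fewer genes at a mean of at least 5 leave out MRPS2. The cause of the other moves was not tested. Of 27 named loci, 20 kept their sign in every alternative. MRPL24 became -0.014 with FPKM as deposited and -0.0028 with the second library of pig-572, MRPS30 0.00077 without a filter and 0.0011 with the first library, and MRPS34 -0.0028 with the first library. Without single pigs, the log2 fold change ran from -0.090 to 0.029 for MRPL18, -0.042 to 0.084 for MRPL24, -0.13 to 0.030 for MRPL32, -0.16 to 0.012 for MRPS24, -0.025 to 0.21 for MRPS28, -0.050 to 0.045 for MRPS30 and -0.016 to 0.073 for MRPS34. mDNAcap regions numbered 0 by overlap with a locus and 3 within 5000 bases, and RRBS regions 0 and 2, and 3 in the table that required 3 pigs per group. No paired analysis was possible because the lean and obese groups hold different pigs and the labels give no shared replicate number.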
